A study of Mus musculus with 40 samples.

Results

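Kit and the kinases and brakes below it were followed through follicle growth in mouse oocytes. The members were 9 genes fixed by name: Kit, the receptor tyrosine kinase on the oocyte surface, Pdpk1, Akt1 and Akt2, kinases of the PI3K branch, Tsc1 and Tsc2, the brake on mTORC1, Rps6kb1, an S6 kinase downstream of mTORC1, Foxo3, a transcription factor, and Cdkn1b, the cyclin-dependent kinase inhibitor p27. A probe set was taken where the array's annotation gave exactly 1 of these symbols and no other. This gave 20 of 45037 probe sets, 16 on the Affymetrix array 430A and 4 on 430B, for 8 of the 9 genes. No probe set used here carried the symbol Rps6kb1 alone, and that gene was not analysed here. A probe set of 430B annotated to both Foxo3 and Gm38485 was not counted.

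Oocytes were isolated from female mice of the SJLB6 background with no treatment or engineered allele named in the labels, and each of 5 follicle stages was measured in 4 samples on each array type, 40 samples in all. Primordial follicle oocytes came from mice aged 2 days and 400 were pooled per sample. Primary follicle oocytes came from mice aged 6 days (90 per sample), secondary from mice aged 12 days (60), small antral from mice aged 17 days (30) and large antral from mice aged 24 days (20). The protocol text of 3 small antral samples on 430B gave 12 days and 60 oocytes instead, and they were kept as small antral, as titled. The samples were called biological replicates, but the animals behind each were not stated, so p-values measure the spread between these samples. Stage, mouse age and pool size changed together and cannot be told apart. Signals are shares of an amplified total, so a smaller share of that total and fewer transcripts per oocyte cannot be told apart either.

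In a primordial follicle, Kit on the oocyte receives Kit ligand from the surrounding granulosa cells and signals through PI3K. PI3K recruits Pdpk1 and the Akt kinases to the membrane, and Akt phosphorylates Foxo3, which then leaves the nucleus, and Tsc2, which relieves the block on mTORC1 and S6 kinase. Mouse oocytes that lack Foxo3, Tsc1, Tsc2 or p27 leave the dormant primordial pool early. These controls act largely through phosphorylation and protein location, which arrays do not measure.

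Oocyte markers identified the samples: 10 of 10 markers, among them Ddx4, Gdf9 and Zp3, had signals of at least 100 in some array of every stage, and their summed signal on 430A lay between 113067.7 and 119207.5 in primary oocytes, against 52123.0 to 69767.2 in primordial oocytes. Of 8 granulosa cell markers on 430A, 5 (Amh, Inhba, Hsd17b1, Amhr2 and Cyp11a1) stayed under 100 in all arrays of each stage up to small antral, and 4 did so in large antral oocytes. Their summed signal lay between 1090.1 and 1174.4 in large antral oocytes, against 569.2 to 752.5 in primary oocytes. The summed signal of 9 markers of theca, stroma and fibroblasts lay between 857.8 and 1178.3 in primary oocytes, against 1351.2 to 1956.6 in primordial oocytes. During growth the oocyte marker sum lay between 82912.9 and 92806.2 in large antral oocytes, against 113067.7 to 119207.5 in primary oocytes, and that of 5 ovarian surface epithelium markers between 804.7 and 1060.2 in secondary oocytes, against 471.8 to 682.2 in primary oocytes. The part of these shifts in the results below was not tested.

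The deposited primordial columns need a caution that touches every comparison with that stage. In replicates 2 to 4, doubling a value and subtracting replicate 1 gave a negative number for 0 of 22526 probe sets on 430A, where the same sum over 48 ordered pairs of samples of other stages gave 1120 to 2857 negative numbers. These 3 columns thus have the form of means with replicate 1. Member changes from the primordial stage are therefore given as deposited and as unmixed, with the mean undone for replicates 2 to 4, and the deposited spread is too small. Signals below are scaled to a trimmed mean of 500 per array, in arbitrary units. A change is the log2 difference of later minus earlier stage from limma, with its standard error, and calls were made where the p adjusted by Benjamini-Hochberg over all tested probe sets of the array type was under 0.05. Levels of different probe sets are not comparable. Of the 20 member probe sets 18 were bright enough to be tested, 15 on 430A and 3 on 430B.

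The sequences just upstream of 4 members are shown, because 1 probe set each of Kit, Foxo3 and Cdkn1b fell from the primordial to the primary stage and Akt1 had the only match to a forkhead motif among the 9 members. A probe set of Pdpk1 fell as well, but its window lies inside the annotated gene and is not shown. They are the 250 bases before the annotated start in RefSeq, build GRCm38.p6, on the gene's strand: chr5:75574737-75574986 (plus) for Kit, chr10:42276696-42276945 (minus) for Foxo3, chr6:134920151-134920400 (plus) for Cdkn1b and chr12:112674885-112675134 (minus) for Akt1. Capitals mark the forkhead match.
Kit: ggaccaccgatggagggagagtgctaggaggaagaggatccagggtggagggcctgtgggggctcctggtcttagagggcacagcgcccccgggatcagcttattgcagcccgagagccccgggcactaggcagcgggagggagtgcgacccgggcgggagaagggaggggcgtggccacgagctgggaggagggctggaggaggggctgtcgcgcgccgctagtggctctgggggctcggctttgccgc
Foxo3: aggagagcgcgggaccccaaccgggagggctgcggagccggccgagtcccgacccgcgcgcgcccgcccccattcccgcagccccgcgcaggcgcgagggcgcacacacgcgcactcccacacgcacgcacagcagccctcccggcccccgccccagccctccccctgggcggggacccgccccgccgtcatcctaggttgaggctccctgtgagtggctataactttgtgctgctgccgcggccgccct
Cdkn1b: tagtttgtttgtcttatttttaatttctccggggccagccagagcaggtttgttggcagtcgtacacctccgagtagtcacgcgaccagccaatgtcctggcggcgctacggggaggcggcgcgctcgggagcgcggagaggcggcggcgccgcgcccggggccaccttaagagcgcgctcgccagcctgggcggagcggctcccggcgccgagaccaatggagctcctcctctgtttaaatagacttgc
Akt1: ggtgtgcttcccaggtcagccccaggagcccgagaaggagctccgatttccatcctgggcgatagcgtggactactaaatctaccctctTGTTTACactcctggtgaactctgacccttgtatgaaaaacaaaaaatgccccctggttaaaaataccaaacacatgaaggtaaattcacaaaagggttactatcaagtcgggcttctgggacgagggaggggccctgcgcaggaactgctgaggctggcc
The windows of Foxo3, Kit and Cdkn1b hold 76.4%, 70.8% and 64.4% G and C, that of Akt1 52.0%, and the median of 32851 windows of the same length was 52.4%. The motifs searched on both strands were the forkhead site GTAAACA, the site TAATTG of Nobox, an oocyte homeobox factor, and the E-box CACGTG. They occur in 3.17%, 7.17% and 6.02% of all windows. Among the members only Akt1 had a match, TGTTTAC, 161 bases before the start. Of the windows not shown, that of Pdpk1 lay inside the annotated gene and those of Tsc1, Tsc2 and Rps6kb1 ran into it. For these members the search was not limited to upstream bases. A match is a stretch of letters and was not tested as a binding site.

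Between the primordial and primary stages, 1 of the 15 tested member probe sets on 430A rose and 4 fell in the deposited values, where 26.5% of all tested probe sets rose and 30.0% fell. With unmixed values 3 of 14 rose and 5 fell, where 24.7% and 25.6% of all tested probe sets did. The median change of the members was -0.22, against -0.08 over all tested probe sets, and 0.11 against -0.06 with unmixed values. On 430B, 0 of 3 were called by limma in either form, and 0 had an unadjusted p under 0.05, where 31.7% of all tested probe sets were called with deposited and 22.7% with unmixed values.

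Foxo3, the transcription factor that holds oocytes dormant, fell by one probe set and not by another. Probe set 1434831_a_at had signals of 1529.1, 1270.0, 2016.4 and 1236.6 in primary oocytes, against 2615.5, 2854.0, 2977.9 and 2725.5 in primordial oocytes. Every primary sample lay below every primordial sample. The log2 change was -0.90 ± 0.15 (SE, adjusted p = 1.1e-05) and -1.02 ± 0.16 with unmixed values (adjusted p = 2.2e-05). Later stages stayed near the primary level, with means of 1286.4 ± 231.9 in secondary, 1468.8 ± 278.0 in small antral and 1445.6 ± 95.0 in large antral oocytes (SD, n = 4 each), and no later comparison was called for it.

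The probe set 1434832_at of the same gene had signals of 1293.8, 1126.5, 965.1 and 736.9 in primary oocytes, against 836.1, 875.0, 799.8 and 930.3 in primordial oocytes. These groups overlapped, and its change was 0.23 ± 0.16 (adjusted p = 0.23; 0.16 ± 0.17 unmixed). The changes of both probe sets differed by -1.12 on the log2 scale. An exact permutation test of that difference gave the smallest p that 4 against 4 samples allow, 0.0286 (two-sided), which was 0.114 after adjustment over the 40 differences tested between probe sets of 1 gene. The deposited primordial columns share replicate 1, so for comparisons with that stage this p is only approximate. The fall of Foxo3 thus rests on 1 of 3 probe sets. The third, 1450236_at, had signals under 100 in all primordial, primary and secondary samples as deposited.

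**Figure D1:**
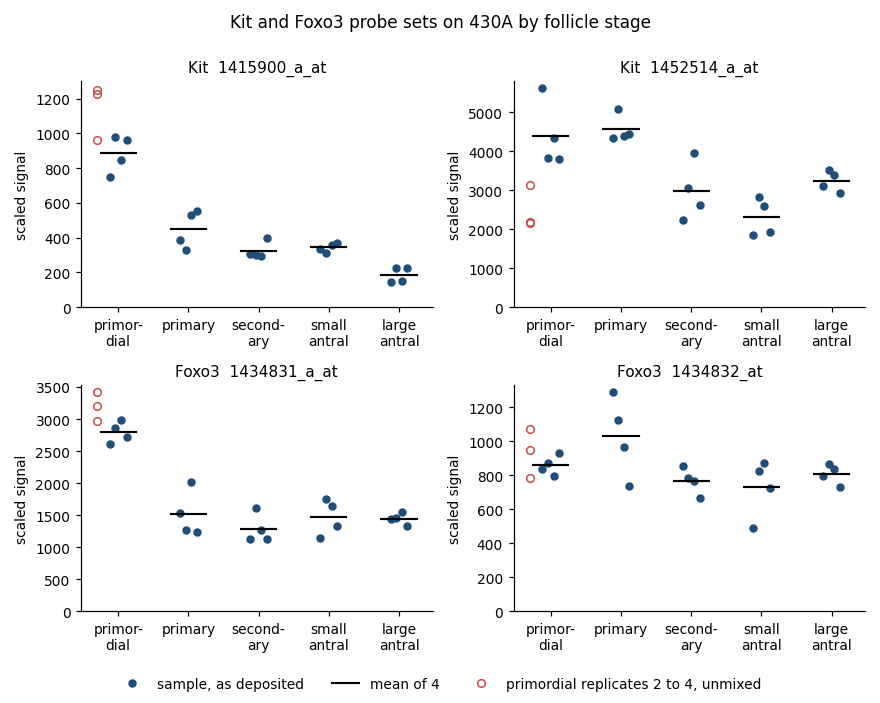
Scaled signal (arbitrary units, linear axis) of 2 Kit and 2 Foxo3 probe sets in each of the 4 samples of 5 stages, with means as bars and unmixed primordial replicates 2 to 4 as open circles. In primary oocytes Foxo3 1434831_a_at lay between 1236.6 and 2016.4, below all primordial samples, while Foxo3 1434832_at overlapped between those stages.

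Kit itself had opposite pictures on its pair of probe sets. Probe set 1415900_a_at had signals of 387.4, 331.9, 528.7 and 553.0 in primary oocytes, against 751.5, 980.4, 845.9 and 964.3 in primordial oocytes, without overlap. It fell by 0.95 ± 0.16 on the log2 scale (SE, adjusted p = 2e-05; -1.16 ± 0.19 unmixed, adjusted p = 2.7e-05). Probe set 1452514_a_at had signals of 4340.2, 5070.9, 4395.9 and 4427.9 in primary oocytes, against 5618.1, 3835.3, 4322.7 and 3801.5 in primordial oocytes. Primordial replicate 1 lay above all primary samples and the other 3 below them. The change of this probe set was 0.07 ± 0.15 with deposited values (adjusted p = 0.73) and 0.58 ± 0.23 with unmixed values, a called rise (adjusted p = 0.039). The changes of the Kit probe sets differed by -1.02 (exact permutation p = 0.0286, 0.114 adjusted). With unmixed values they differed by -1.75 (exact permutation p = 0.0286, not adjusted).

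Pdpk1, the kinase that phosphorylates Akt at its activation loop, also split. Probe set 1415729_at had signals of 2391.1, 2175.0, 2569.7 and 2535.8 in primary oocytes, against 3310.4, 4479.7, 5477.0 and 4829.2 in primordial oocytes, and it fell by 0.87 ± 0.12 (adjusted p = 1.3e-06). It is one of 100 probe sets of 430A recorded on a finer grid, so no unmixed value could be formed. Probe set 1416501_at had signals of 1335.1, 1832.9, 1633.2 and 1539.2 in primary oocytes, against 1226.2, 1101.0, 1129.3 and 1092.6 in primordial oocytes, and it rose by 0.46 ± 0.15 (adjusted p = 0.011; 0.54 ± 0.17 unmixed). For both probe sets the groups did not overlap, so the same gene was called lower by one and higher by the other. The changes differed by -1.33 (exact permutation p = 0.0286, 0.114 adjusted).

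Cdkn1b, the gene of p27, fell on 1 of its 2 probe sets with deposited values. Probe set 1419497_at had signals of 100.8, 75.7, 132.2 and 95.9 in primary oocytes, against 215.2, 216.9, 166.0 and 208.9 in primordial oocytes, a change of -0.82 ± 0.19 (adjusted p = 0.00074; -0.75 ± 0.22 unmixed, adjusted p = 0.0069). Probe set 1434045_at had signals of 313.7, 341.8, 403.0 and 385.6 in primary oocytes, against 387.8, 457.0, 516.0 and 650.5 in primordial oocytes. Its groups overlapped in 1 primordial sample, and its change of -0.43 ± 0.20 was not called with deposited values (adjusted p = 0.072) but was with unmixed values (-0.70 ± 0.24, adjusted p = 0.019). Both probe sets of Cdkn1b thus moved the same way at this step, and their difference of -0.39 gave an exact permutation p of 0.1714.

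No Akt or Tsc probe set was called between these stages with deposited values. Akt1, the kinase isoform of general growth signalling, had a change of 0.29 ± 0.16 on 1416657_at with deposited values (adjusted p = 0.11) and a called rise of 0.53 ± 0.18 with unmixed values (adjusted p = 0.021). Akt2, the isoform best known from insulin signalling, had changes of 0.03 ± 0.17 on 1424480_s_at (0.29 ± 0.21 unmixed), -0.28 ± 0.27 on 1421324_a_at (0.38 ± 0.36 unmixed) and -0.64 ± 0.46 on 1455703_at of 430B (-0.19 ± 0.55 unmixed). None of these was called in either form, and that of 1421324_a_at turned its sign. Tsc1 1455252_at lay between 724.7 and 776.8 in primary oocytes, against 851.8 to 933.5 in primordial oocytes. These groups did not overlap, but the change of -0.22 ± 0.09 was not called with deposited values (adjusted p = 0.055) and was called with unmixed values (-0.29 ± 0.11, adjusted p = 0.038), as it was in 3 other alternatives. For Tsc2 the unmixed primordial signals were 596.1, 31.6, 248.9 and 193.1, so its change of 0.84 ± 0.43 with unmixed values (adjusted p = 0.11) has a wide error, and the deposited change was -0.15 ± 0.23.

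**Figure D2:**
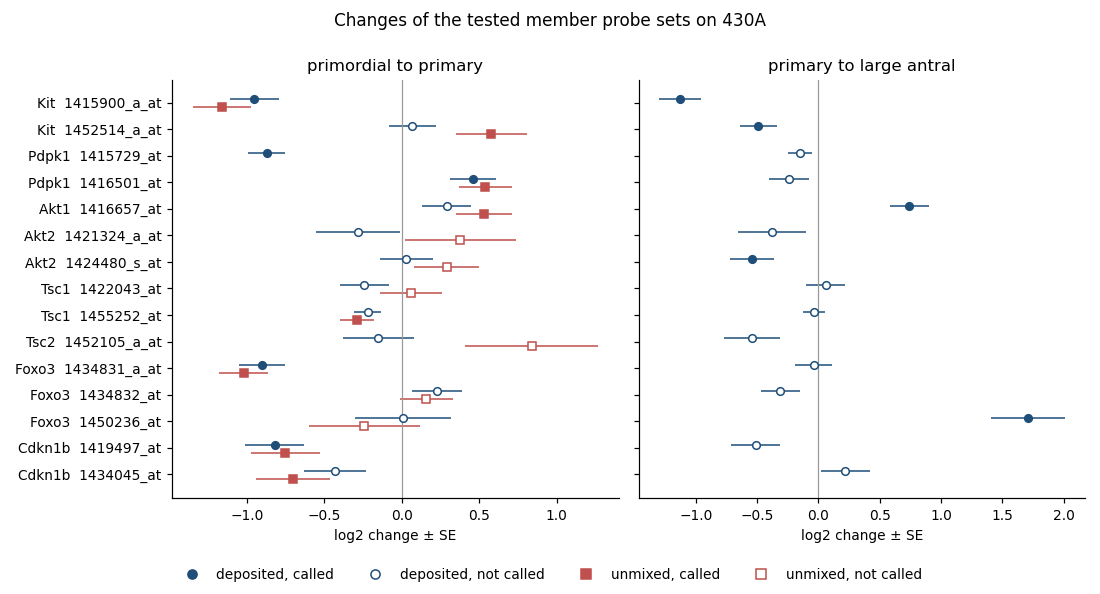
Log2 change with its standard error (horizontal axis) of the 15 tested member probe sets on 430A from the primordial to the primary stage (left; circles deposited, squares unmixed) and from the primary to the large antral stage (right). Filled symbols were called at an adjusted p under 0.05; Kit, Pdpk1 and Foxo3 each have a probe set that fell on the left and another that did not.

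From the primary to the secondary stage, a Tsc1 probe set rose and the Tsc2 probe set fell. On 430A 1 of 15 member probe sets rose and 3 fell, where 10.5% of all tested probe sets rose and 8.89% fell, and the members' median change was -0.16, against -0.01 over all. On 430B 0 of 3 were called by limma, and 0 had an unadjusted p under 0.05, where 5.24% of all tested probe sets were called.

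Tsc1 1455252_at had signals of 1137.3, 1083.4, 1178.4 and 1189.9 in secondary oocytes, against 776.8, 739.1, 724.7 and 757.7 in primary oocytes, with no overlap and a rise of 0.59 ± 0.09 (adjusted p = 0.00016). The second Tsc1 probe set of 430A, 1422043_at, lay between 283.9 and 344.3 in secondary oocytes, against 238.5 to 420.5 in primary oocytes, and was not called. Nor was Tsc1 1439989_at of 430B, with a change of 0.16 ± 0.34 (adjusted p = 0.9). Tsc1 encodes hamartin, which stabilises tuberin, the product of Tsc2. Tsc2 1452105_a_at had signals of 131.4, 236.3, 286.2 and 176.9 in secondary oocytes, against 348.1, 394.3, 379.5 and 361.8 in primary oocytes, and fell by 0.79 ± 0.23 (adjusted p = 0.02). All 4 secondary samples lay below all primary samples, but the call was lost without secondary replicate 1 or secondary replicate 4 (adjusted p up to 0.077).

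Kit 1452514_a_at fell as well, with signals of 2230.3, 3048.6, 3955.0 and 2625.5 in secondary oocytes, against 4340.2, 5070.9, 4395.9 and 4427.9 in primary oocytes. The groups did not overlap and the change was -0.64 ± 0.15 (adjusted p = 0.0041). Kit 1415900_a_at changed by -0.42 ± 0.17, which was not called (adjusted p = 0.091), so at this step the changes of both probe sets had the same sign. Akt2 1424480_s_at had signals of 577.4, 832.6, 750.2 and 568.8 in secondary oocytes, against 1125.9, 1078.9, 806.4 and 1156.3 in primary oocytes, a fall of 0.59 ± 0.18 (adjusted p = 0.027) with overlap in 1 sample of each group. By the manufacturer's naming, the suffix _s_at marks probes that match transcripts of more than a single gene, so this signal may be shared. The call was lost when any of primary replicates 1, 2 and 4 or secondary replicates 1 and 4 was left out (adjusted p up to 0.086).

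From the secondary to the small antral stage 0 of 15 member probe sets on 430A were called by limma, and 2 had an unadjusted p under 0.05, where 6.81% of all tested probe sets rose and 10.6% fell. On 430B 0 of 3 were called and 0 had an unadjusted p under 0.05, where 5.14% of all were called. Kit 1452514_a_at had signals of 1862.5, 2821.7, 2600.7 and 1939.5 in small antral oocytes, against 2230.3, 3048.6, 3955.0 and 2625.5 in secondary oocytes, a difference of -0.35 ± 0.15 (adjusted p = 0.12). Small antral replicates 1 and 4 lay below replicates 2 and 3 for this probe set, and also for Akt1 1416657_at, Akt2 1424480_s_at and Foxo3 1434831_a_at. They lay above replicates 2 and 3 for Tsc1 1455252_at and Cdkn1b 1434045_at.

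From the small to the large antral stage, a Tsc1 probe set fell back and the Kit probe sets parted again. On 430A 2 of 15 member probe sets rose and 2 fell, where 4.98% of all tested probe sets rose and 6.44% fell, with a median change of 0.09 in the members, against 0.01 over all. On 430B 0 of 3 were called by limma, with 0 at an unadjusted p under 0.05, where 1.55% of all tested probe sets were called.

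Tsc1 1455252_at had signals of 683.2, 790.1, 694.7 and 739.0 in large antral oocytes, against 1154.7, 1001.2, 930.1 and 1189.2 in small antral oocytes, without overlap, and fell by 0.53 ± 0.09 (adjusted p = 0.0015). Its small antral and secondary levels, 1068.8 ± 123.4 and 1147.2 ± 48.2, were the 2 highest of the 5 stages and did not differ beyond their spread (-0.11, adjusted p = 0.52). The large antral and primary levels, 726.8 ± 48.6 and 749.6 ± 22.6 (SD, n = 4 each), were the 2 lowest and likewise did not differ beyond their spread (-0.04, adjusted p = 0.75). The other Tsc1 probe sets were not called from small to large antral. Their changes were 0.09 ± 0.16 on 1422043_at (adjusted p = 0.78) and -0.41 ± 0.34 on 1439989_at of 430B (adjusted p = 0.76).

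Kit 1415900_a_at had signals of 147.0, 226.4, 151.9 and 224.5 in large antral oocytes, against 335.4, 309.3, 359.2 and 370.8 in small antral oocytes, and fell by 0.79 ± 0.17 (adjusted p = 0.005). Kit 1452514_a_at had signals of 3106.0, 3508.5, 3389.8 and 2920.9 in large antral oocytes, against 1862.5, 2821.7, 2600.7 and 1939.5 in small antral oocytes, and rose by 0.50 ± 0.15 (adjusted p = 0.033). Neither pair of groups overlapped, so the receptor's probe sets were called in opposite directions, with changes that differed by -1.29 (exact permutation p = 0.0286, 0.114 adjusted). The rise lost its call under median scaling, with no filter and in 5 of the settings that left out a sample (adjusted p up to 0.11), while the fall kept its call in every alternative run.

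The Cdkn1b probe sets also had changes of opposite sign, but only 1 of them was called. Probe set 1434045_at had signals of 346.9, 484.1, 389.3 and 485.4 in large antral oocytes, against 320.5, 195.8, 192.3 and 376.8 in small antral oocytes, and rose by 0.63 ± 0.20 (adjusted p = 0.047). Its groups overlapped in 1 sample each, and 9 of 17 alternatives lost the call (adjusted p up to 0.13). Probe set 1419497_at had signals of 46.9, 69.7, 62.7 and 63.8 in large antral oocytes, against 116.8, 85.3, 138.1 and 72.4 in small antral oocytes, a difference of -0.52 ± 0.20 that was not called (adjusted p = 0.11) although the samples did not overlap. The changes differed by -1.16 (exact permutation p = 0.0286, 0.114 adjusted).

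**Figure D3:**
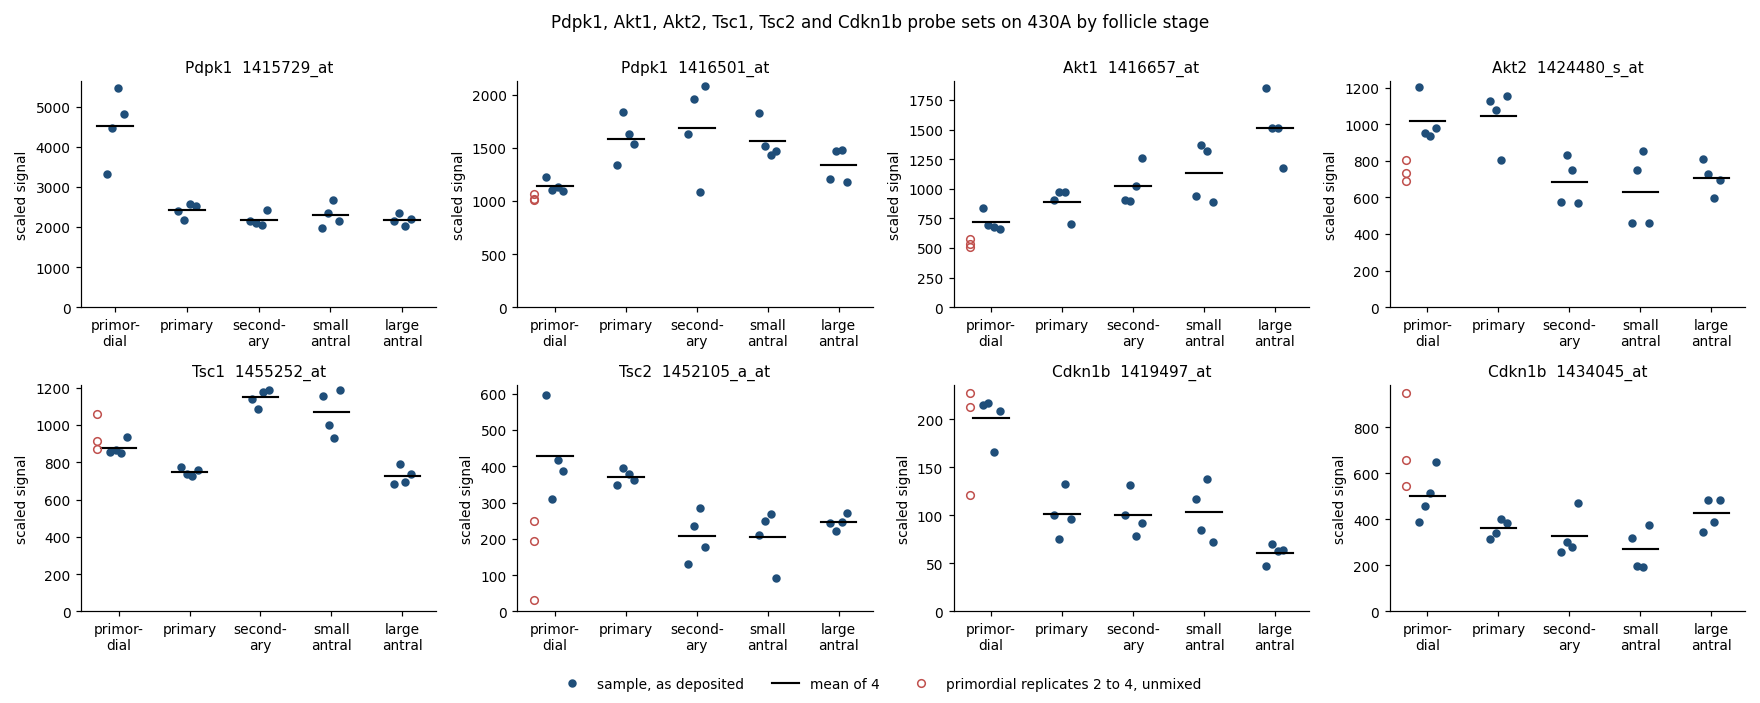
Scaled signal (arbitrary units, linear axes) of 8 probe sets of Pdpk1, Akt1, Akt2, Tsc1, Tsc2 and Cdkn1b in each of 4 samples per stage, with means as bars and unmixed primordial replicates 2 to 4 as open circles where they could be formed. Tsc1 1455252_at was highest in secondary and small antral oocytes, and Akt1 1416657_at averaged 1511.8 in large antral oocytes, against 888.1 in primary oocytes.

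Across the whole of growth, from the primary to the large antral stage, an Akt1 probe set rose and both of Kit and 1 of Akt2 fell. On 430A 2 of 15 member probe sets were called higher, 1 of them a Foxo3 probe set that was tested only through its antral signals, and 3 fell, where 19.6% of all tested probe sets rose and 21.6% fell, and on 430B 0 of 3 were called by limma, with 0 at an unadjusted p under 0.05, where 14.8% of all were called. The comparison shares its samples with the single steps above.

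Akt1 1416657_at had signals of 1847.0, 1512.5, 1512.3 and 1175.4 in large antral oocytes, against 902.1, 976.1, 972.7 and 701.5 in primary oocytes, without overlap, and rose by 0.74 ± 0.16 (adjusted p = 0.00083). No single step between these stages was called for it: its means were 1021.7 ± 168.0 in secondary and 1129.8 ± 248.7 in small antral oocytes, and the step changes were 0.19, 0.13 and 0.42. A second Akt1 probe set, 1440950_at on 430B, averaged 536.9 ± 97.0 in large antral oocytes, against 755.2 ± 88.6 in primary oocytes. Its groups did not overlap, with a change of -0.48 ± 0.23 that was not called (adjusted p = 0.22) and has the opposite sign to that of 1416657_at. The 2 member probe sets not tested, 1425711_a_at on 430A and 1442759_at on 430B, are both of Akt1 and stayed under 100 in every sample as deposited.

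Kit fell on both probe sets over this span, by 1.13 ± 0.17 on 1415900_a_at (adjusted p = 1.7e-05) and by 0.49 ± 0.15 on 1452514_a_at (adjusted p = 0.011), with no overlap on either. Akt2 1424480_s_at had signals of 807.1, 726.4, 594.4 and 694.7 in large antral oocytes, against 1125.9, 1078.9, 806.4 and 1156.3 in primary oocytes, a fall of 0.54 ± 0.18 with overlap in 1 sample of each group (adjusted p = 0.023) that 4 alternatives lost (adjusted p up to 0.076). Foxo3 1450236_at had signals of 244.1, 217.4, 160.8 and 184.5 in large antral oocytes, against 30.4, 58.5, 22.8 and 49.6 in primary oocytes. It passed the filter on dim probe sets only through its antral samples, so a difference between stages was a condition of its being tested, and its call is not read as a result. The other Foxo3 probe sets changed by -0.04 and -0.31 and were not called.

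Genes whose pattern over the 20 arrays of 430A was most like a member's were found by Pearson correlation of log2 signals, as a description, since the arrays share stages and the primordial columns share replicate 1. For Kit 1452514_a_at they were Trim37 (r = 0.954), Srrt (0.935) and Smarca4 (0.927), and over the 16 arrays of growing stages r was 0.941, 0.916 and 0.92. For Foxo3 1434831_a_at they were Marcks (0.926), Herc4 (0.919) and Serp1 (0.918), with 0.691, 0.553 and 0.56 over growing stages. For Cdkn1b 1434045_at they were Gm6787 (0.85), Gtpbp4 (0.841) and Mvb12b (0.817), with 0.834, 0.801 and 0.887 over growing stages.

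The surroundings of the members were described by 12 lists of 87 genes, of which 78 were tested, 68 of them on 430A. The lists covered the receptors and adaptors around Kit, PI3K subunits, brakes on PI3K, kinases related to Akt, mTOR partners, energy sensors, the S6 kinase arm, Foxo factors and targets, 14-3-3 proteins and p27 partners. From primordial to primary 21 of the 68 rose and 22 fell, where 26.5% and 30.0% of all tested probe sets of 430A did, and with unmixed values 18 and 20, where 24.7% and 25.6% did. From primary to secondary 9 rose and 10 fell, where 10.5% and 8.89% of all did. From secondary to small antral 5 rose and 8 fell, where 6.81% and 10.6% of all did, and from small to large antral 4 rose and 7 fell, where 4.98% and 6.44% did. From primary to large antral 15 rose and 18 fell, where 19.6% and 21.6% of all did. The median change of the 78 genes lay between -0.1 and 0.06 in these comparisons, against -0.08 to 0.01 over all tested probe sets of 430A.

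Between the primordial and primary stages several neighbours had larger log2 changes than the members. Ddit4, an inducible inhibitor of mTORC1 that acts through the Tsc complex, had signals of 2176.4, 1940.6, 2361.6 and 2390.2 in primary oocytes, against 45.3, 119.0, 77.9 and 86.8 in primordial oocytes, and rose by 4.33 ± 0.19 (3.97 ± 0.25 unmixed). Since 3 of its 4 primordial signals lay under 100, the size of this change depends on the constant of 32 added before the log. Ddit4 also passed the filter on dim probe sets only through the growing stages, where it was high, and its call is not read as a result. Pik3cd, the delta catalytic subunit of PI3K, had signals of 2686.4, 2751.5, 2384.7 and 2236.1 in primary oocytes, against 469.1, 321.6, 344.8 and 306.2 in primordial oocytes, and rose by 2.71 ± 0.18 (3.23 ± 0.25 unmixed). The alpha subunit gene Pik3ca changed by 0.32 ± 0.21 and was not called (adjusted p = 0.2; 0.31 ± 0.25 unmixed). Of the 10 PI3K subunit genes tested, 8 of them on 430A, 3 rose and 2 fell, and 2 rose and 1 fell with unmixed values, all on 430A. Of all tested probe sets of 430A 26.5% rose and 30.0% fell, and 24.7% and 25.6% with unmixed values.

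Foxo1, the paralogue of Foxo3, rose where 1434831_a_at of Foxo3 fell. Its signals were 2333.0, 2293.3, 2428.4 and 2109.4 in primary oocytes, against 791.2, 903.0, 901.9 and 761.5 in primordial oocytes, a change of 1.42 ± 0.09 (1.31 ± 0.11 unmixed). It rose again by 0.40 ± 0.08 from the primary to the large antral stage (adjusted p = 0.00021). The Foxo1 probe set has the suffix _s_at, so by the naming given above its signal may be shared. Of 9 tested genes known as Foxo targets in other cells, 2 rose and 4 fell from primordial to primary, where 26.5% and 30.0% of all tested probe sets of 430A did. Cited2, a transcriptional cofactor, rose by 1.89 ± 0.16 (1.54 ± 0.21 unmixed). Cat, the catalase gene, is among the falls, with signals of 62.8, 84.0, 108.4 and 67.5 in primary oocytes, against 359.0, 873.6, 866.9 and 1044.1 in primordial oocytes. It passed the filter on dim probe sets only through the primordial arrays, where it was high. Its call is not read as a result, although the 4 falls include it. With unmixed values the list also had 2 rises and 4 falls, Cat again among the falls. Of all tested probe sets of 430A 24.7% rose and 25.6% fell in those values. In those values Txnip, a thioredoxin inhibitor, was up by 1.70 ± 0.15.

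On the mTORC1 side, Mtor rose by 0.60 ± 0.12 from primordial to primary (0.45 ± 0.15 unmixed). Stk11, the gene of the Lkb1 kinase that activates AMPK, rose by 0.84 ± 0.11 at the same step (1.06 ± 0.14 unmixed). Of 5 energy sensor genes, 3 on 430A and 2 on 430B, 3 rose and 0 fell by limma. Over all tested probe sets 26.5% rose and 30.0% fell on 430A, and 31.7% were called in either direction on 430B. Eif4ebp1, the translation repressor 4E-BP1 that mTORC1 switches off, had signals of 702.4, 783.7, 735.6 and 809.3 in primary oocytes, against 5571.8, 5867.7, 5237.9 and 4932.1 in primordial oocytes, and fell by 2.78 ± 0.15 (-2.77 ± 0.17 unmixed). It fell again by 0.79 ± 0.17 from primary to secondary. The Eif4ebp1 probe set has the suffix _x_at, and whether its signal comes from that gene alone was not tested. Of 6 tested genes of the S6 kinase and translation arm 1 rose and 4 fell from primordial to primary, where 26.5% and 30.0% of all tested probe sets of 430A did. The counts were 1 and 3 where a gene was represented by its probe set with the smallest residual variance. Gab1, an adaptor that links receptor kinases to PI3K, fell by 1.81 ± 0.27 (-1.73 ± 0.30 unmixed). Kitl, the gene of the Kit ligand, which granulosa cells make, was not called in any comparison and had changes between -0.23 and 0.27.

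**Figure D4:**
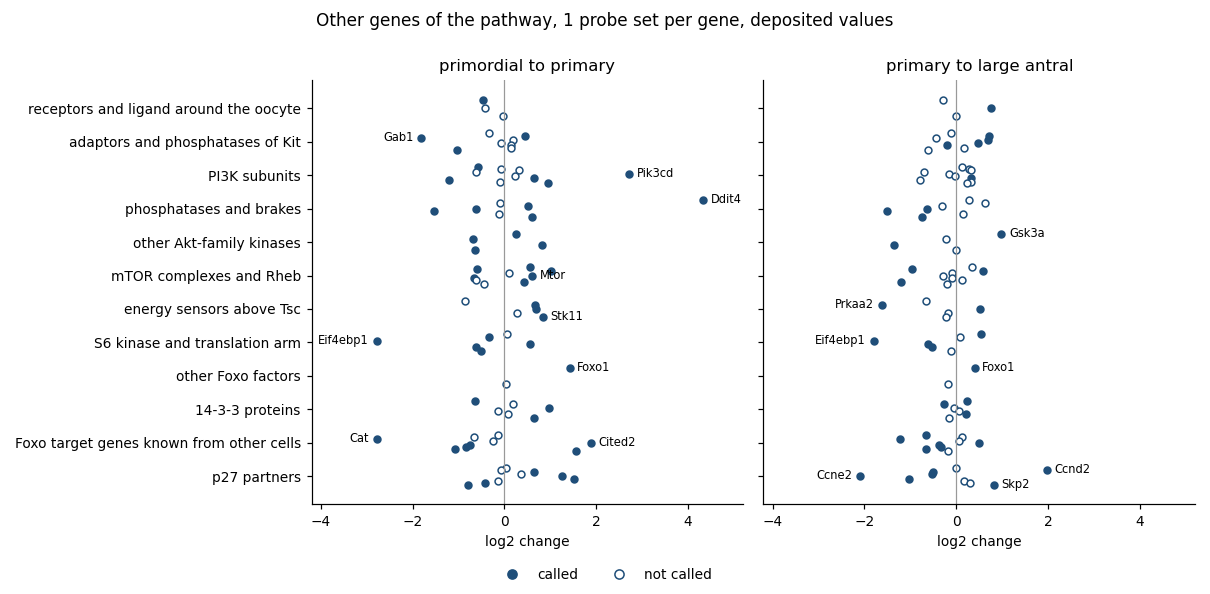
Log2 change (horizontal axis) of each tested gene of the 12 lists around the members, from the primordial to the primary stage (left) and from the primary to the large antral stage (right), deposited values, with 1 probe set per gene. Filled points were called. Symbols mark the 3 largest called rises and falls of each comparison, and Mtor, Stk11 and Foxo1 where called. Ddit4 (4.33) and, at -2.78 each, Eif4ebp1 and Cat mark the ends on the left, Ccnd2 (1.97) and Ccne2 (-2.09) those on the right. Ddit4 passed the filter on dim probe sets only through the growing stages and Cat only through the primordial arrays, and their calls on the left are not read as results.

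Among the cell cycle partners of p27, Ccnd2 and Ccne2 had the largest rise and fall during growth. Ccnd2, cyclin D2, had signals of 686.1, 643.7, 623.1 and 783.6 in large antral oocytes, against 155.4, 137.5, 171.9 and 138.9 in primary oocytes, and rose by 1.97 ± 0.13, with called rises from secondary to small antral (0.53 ± 0.13) and from small to large antral (1.04 ± 0.13). Its secondary signals, 266.0, 196.2, 188.0 and 189.5, already lay above all primary signals. Ccne2, cyclin E2, had signals of 111.0, 158.6, 170.1 and 107.1 in large antral oocytes, against 734.2, 708.7, 550.1 and 729.9 in primary oocytes. It rose by 0.73 ± 0.19 to the secondary stage before it fell by 1.77 ± 0.19 to the small antral stage. Skp2, the F-box protein that targets p27 for degradation, rose by 0.82 ± 0.11 from primary to large antral. Of 9 p27 partners 2 rose and 4 fell over that span, and 3 and 4 with the probe set of smallest residual variance per gene, against 19.6% and 21.6% of all tested probe sets of 430A.

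Among the kinases, Gsk3a, which Akt inactivates, rose by 0.98 ± 0.09 from primary to large antral, 0.82 ± 0.09 of it from small to large antral. Prkaa2, a catalytic AMPK subunit measured on 430B, had signals of 673.3, 825.0, 769.9 and 669.4 in large antral oocytes, against 2235.2, 2638.4, 2083.0 and 2345.4 in primary oocytes, a fall of 1.62 ± 0.14. Pik3ip1, an inhibitor of PI3K, also on 430B, rose by 0.75 ± 0.13 to the secondary stage and fell by 0.93 ± 0.13 to the small antral stage. Igf1r, a receptor that feeds the same pathway, fell by 0.62 ± 0.15 to the secondary stage, and Cbl, the ubiquitin ligase that turns over Kit, rose by 0.57 ± 0.17. Gab1 was called lower at the small antral stage and higher at the large antral stage, with signals of 18.9, 33.1, 23.1 and 89.9 in small antral oocytes, all under 100, so no size is given. Sgk1, a kinase related to Akt, fell by 0.71 ± 0.20 at that last step. Pik3c2a, a class II PI3K gene, rose by 0.50 ± 0.10 to the small antral stage.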

How the data were processed

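Transcript signals of mouse oocytes at 5 follicle stages were analysed from 2 deposited tables, 1 for each array type. Per the submitters' processing notes the authors computed the deposited values, a linear intensity per probe set, with MAS5; the version and scaling target are not given in the sources used here. As deposited, an array's trimmed mean was 151.1 to 154.5 for 430A and 144.4 to 147.6 for 430B, and between 57.4% and 77.9% of probe sets reached a signal of 100 after scaling. The number of arrays limits the precision.

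Control probe sets were dropped, arrays were rescaled to trimmed means (2% off each end) of 500, and the log2 of signal plus 32 was used, which understates changes of dim probe sets. Tests covered probe sets that reached 100 on 4 or more arrays of their type, namely 15845 on 430A and 19115 on 430B. Tests were two-sided with limma (version 3.58.1, R 4.3.3; lmFit, then eBayes with trend), per array type. Primordial to primary was fitted on all 20 arrays, the other 4 comparisons on the 16 arrays of growing stages, because the primordial columns are not independent. The unmixed primordial value is the deposited value doubled minus replicate 1, floored at 0. Adjusted p-values are Benjamini-Hochberg over all tested probe sets, and the procedure was tested on simulated data.

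Stages and replicate numbers came from sample titles. Deviations of same-numbered samples correlated between -0.08 and 0.132 on 430A, so the numbers were not taken as pairs. A gene of a list was represented by its tested probe set with the highest mean level, 430A first. In each comparison the 3 largest called rises and falls of the lists were picked for naming, with Kitl, Pik3ca, Mtor, Stk11 and Foxo1 in addition. Not every gene so picked is described above for every comparison. Members, lists and tests were chosen with earlier results of these data known. Symbols came from the platform annotation, where 20380 probe sets of 430A and 14565 of 430B had 1 symbol, 691 and 241 several and 1555 and 7605 none. Upstream sequences are from RefSeq. Alternatives were the normalization, the added constant, the filter, the samples in the fit, a replicate block, unmixed values and leaving out each sample.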

Additional observations from a re-analysis of the deposited data

Results flagged for a closer look

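In 9 of 90 groups of 4 samples of the tested member probe sets, 1 sample lay far from the other 3 by Dixon's test at the 95% level, which chance passes in about 1 of 20 groups. On 430A these were primary replicate 2 of Kit 1452514_a_at at 5070.9 (others 4340.2 to 4427.9), secondary replicate 4 of Kit 1415900_a_at at 395.9 (292.1 to 305.1), primordial replicate 3 of Cdkn1b 1419497_at at 166.0 (208.9 to 216.9) and primordial replicate 2 of Foxo3 1450236_at at 83.9 (23.1 to 33.0). Primordial replicate 1 of Akt2 1424480_s_at stood at 1201.1 (935.0 to 979.3), in a stage whose other columns have the form of means with that replicate. The rate of 1 of 20 assumes independent samples, so it does not hold for the primordial groups of any probe set.

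On 430B, Akt1 1440950_at had 3 such samples, primordial replicate 2 at 861.2 (624.1 to 653.9), secondary replicate 3 at 302.0 (721.4 to 766.6) and small antral replicate 3 at 583.1 (713.9 to 727.6). Tsc1 1439989_at had 1, secondary replicate 2 at 299.8 (169.7 to 182.9). Neither probe set was called in any comparison.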

How the results depend on the processing

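No called member probe set turned its direction under any alternative run. Of the member probe sets on both arrays, the 5 called from primordial to primary became 8 with unmixed values and 5 to 7 when a sample was left out. The 4 called from primary to secondary became 2 to 4 when a sample was left out, with 2 without secondary replicate 4. The 0 called from secondary to small antral became 1 with no filter (Akt1 1425711_a_at, otherwise too dim to be tested), 1 with the replicate block (Kit 1452514_a_at, -0.35, adjusted p = 0.038) and 0 to 1 when a sample was left out, with 1 each without secondary replicates 1 and 2. The 4 called from small to large antral became 2 under median scaling, 2 with no filter and 2 to 4 when a sample was left out, with 2 without large antral replicates 2 and 3. The 5 called from primary to large antral became 4 to 5 when a sample was left out and 4 to 7 under the other alternatives. With the replicate block the other counts were 6, 4, 4 and 5 in the same order, and the numbers are not shown to pair the samples. Median scaling moved the median change of all tested probe sets from primordial to primary to 0.06, against -0.08, on 430A and to 0.05, against -0.23, on 430B, where the share of rises among calls was 62.1%, against 37.9% (48.8% with quantile normalization). Leaving out the 3 small antral samples of 430B whose protocol text differed leaves 1 sample there and says nothing about stability. All 9 named pathway genes called from primordial to primary kept their call under both scalings, among them Ddit4 and Cat, whose calls are not read as results. The cause of these differences was not tested. The median standard error in the comparisons of growing stages was 0.17 on 430A and 0.35 on 430B, so changes were typically measured less precisely on 430B. Standard errors differed between probe sets, and no smallest detectable change was worked out.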
